A study of Mus musculus with 6 samples.

Results

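Receptors best known from blood vessels were measured in hematopoietic stem cells (HSCs), the rare marrow cells from which blood is made throughout life. The 10 genes were Tek, Tie1, Kdr, Flt1, Flt4, Nrp1, Nrp2, Ramp2, Calcrl and Eng, chosen by symbol from the 24091 genes of the deposited count table, and all 10 were found in it. Aged cells were wild-type HSCs of 20-month-old mice (3 libraries, aged 1 to aged 3), and young cells were wild-type HSCs of 2-month-old mice (3 libraries, young 4 to young 6). Cells of both ages carried the same sort phenotype: no lineage markers, Sca-1+, c-Kit+, CD150+ and CD48-. Each sample was a pool of mice, drawn from 4 aged and from 30 young animals. Whether those numbers hold per sample or per group is not stated, and p-values therefore describe only how these pools differ, part of which can be technical.

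The angiopoietin receptor TIE2, encoded by Tek, and its partner TIE1 are receptor tyrosine kinases that keep vessels stable, and TIE2 on HSCs is known as a receptor for angiopoietin-1 in the niche. The VEGF receptors encoded by Kdr, Flt1 and Flt4 drive vessel growth, with the neuropilins Nrp1 and Nrp2 as co-receptors. Calcrl encodes a G protein-coupled receptor whose ligand is set by a partner of the RAMP family: with RAMP2 it binds adrenomedullin, and with RAMP1 it binds calcitonin gene-related peptide (CGRP). Endoglin, encoded by Eng, is a co-receptor for ligands of the TGF-beta and BMP family.

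The promoters of Eng, Tie1 and Kdr are shown because the RNA of these 3 genes ran together across the 6 libraries, and that of Tek because its RNA followed them less closely. Each runs 5′ to 3′ from 250 bases before to 50 bases after a RefSeq start of the gene (build GRCm38.p6). For Tek and Kdr that start lies inside the RefSeq interval of the gene, not at its outer end. Capitals mark matches on either strand to any of 3 short motifs, which do not overlap in these windows. The core searched for ETS factors was AGGAAG. That for factors of the family of Gata2 was AGATAA. The GC box was searched as GGGCGG.
Eng, chr2:32646345-32646644, plus strand: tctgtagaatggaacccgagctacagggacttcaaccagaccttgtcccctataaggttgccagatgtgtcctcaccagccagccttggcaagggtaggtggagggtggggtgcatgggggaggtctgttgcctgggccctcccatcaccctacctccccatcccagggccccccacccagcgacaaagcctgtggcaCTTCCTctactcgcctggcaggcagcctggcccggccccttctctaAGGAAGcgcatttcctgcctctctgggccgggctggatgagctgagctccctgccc
Tie1, chr4:118489800-118490099, minus strand: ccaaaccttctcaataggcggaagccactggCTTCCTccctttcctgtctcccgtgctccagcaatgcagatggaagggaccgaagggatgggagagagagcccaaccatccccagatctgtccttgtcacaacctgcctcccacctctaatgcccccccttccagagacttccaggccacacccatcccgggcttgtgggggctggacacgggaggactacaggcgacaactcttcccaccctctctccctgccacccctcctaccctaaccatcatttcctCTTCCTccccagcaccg
Kdr, chr5:75978406-75978705, minus strand: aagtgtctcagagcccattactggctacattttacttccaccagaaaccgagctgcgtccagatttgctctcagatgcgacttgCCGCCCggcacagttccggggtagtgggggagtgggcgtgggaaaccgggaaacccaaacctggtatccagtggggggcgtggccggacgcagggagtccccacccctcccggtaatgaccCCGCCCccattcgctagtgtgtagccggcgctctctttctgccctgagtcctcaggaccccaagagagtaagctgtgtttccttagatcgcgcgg
Tek, chr4:94739039-94739338, plus strand: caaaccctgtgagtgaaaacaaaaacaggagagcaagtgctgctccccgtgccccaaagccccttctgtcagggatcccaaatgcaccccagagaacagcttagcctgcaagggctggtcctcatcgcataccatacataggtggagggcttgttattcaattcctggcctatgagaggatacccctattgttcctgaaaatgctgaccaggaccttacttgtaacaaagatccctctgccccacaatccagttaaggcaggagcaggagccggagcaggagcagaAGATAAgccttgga

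Eng and Tie1 each held 2 matches to the ETS core, Kdr held 2 GC boxes, and Tek held 1 match to the Gata2 family core. Promoters of 9 of the 10 genes, all but Ramp2, were matched in the RefSeq table. Of these 9, 5 held the ETS core, 1 the Gata2 family core and 6 a GC box. Over all 32851 promoters of that table the shares were 35.4%, 11.2% and 35.7%. The letters ACGTGC, a hypoxia response core, were in none of the 9 and in 5.91% of all promoters. A match is a description of letters and shows no bound factor. Whether these promoters have a part in the RNA values was not tested.

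Totals ran from 16452829 to 21918658 counts per library, and values are given in CPM, counts relative to the library total after TMM scaling. A gene with 0 counts could still have been present at up to 3 counts, which is 0.132 to 0.239 CPM depending on the library, for counting error only. Genes of the sort were read first. Kit, which encodes c-Kit, averaged 976 ± 99.0 CPM in aged HSCs and 632 ± 282 CPM in young HSCs (SD, n = 3 each, as for all means here), and Slamf1, which encodes CD150, averaged 98.8 ± 18.9 and 64.3 ± 1.95 CPM, with adjusted p-values of 0.305 and 0.0891. Ly6a, which encodes Sca-1, was 3.04-fold higher in aged cells, and Cd48 was 7.72-fold lower, with 1.40 ± 1.04 CPM in aged HSCs and 10.8 ± 3.17 CPM in young HSCs (adjusted p = 0.0435 and 0.0345). Left-out libraries ended both calls: that of Ly6a held only without young 4, and that of Cd48 only without aged 1 or young 4. On the log2 scale Cd48 differed by -2.95 with all libraries and by -3.72 without aged 1. Of the 8 sort and stem cell markers, 4 were called higher, a call made for 4.26% of all 13413 genes tested. Besides Ly6a these were Fgd5, Hoxb5 and Mecom, genes known from long-term HSCs. This list, like the other gene lists here, was chosen with earlier results of these data known, so its share is no independent comparison. Fgd5 rose 2.11-fold, Hoxb5 2.03-fold and Mecom 1.83-fold in aged cells (adjusted p = 0.0381, 0.0418 and 0.0454). The 8 markers summed to 1645 to 1968 CPM in aged and to 845 to 1379 CPM in young libraries. With 1 library left out, Fgd5 and Mecom were called only without young 4 and Hoxb5 in no fit, and none of the 3 was called after correction for GC content and length (adjusted p = 0.208, 0.0504 and 0.0547 for Fgd5, Hoxb5 and Mecom). Mecom was also not called with no scaling beyond library totals (adjusted p = 0.0670). Their part in the receptor values was not tested. Young 4 stood apart from the other libraries: Actb took 4.06% of its counts, against 0.555% to 1.36% elsewhere. Aged 2 stood apart in another way, with counts for 20918 genes, against 16084 to 17057 genes in the others.

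Of the vessel receptors, 1 was called higher in aged cells: Ramp2, 22.0-fold. No receptor was called lower, and 8 missed the threshold. Among these, Tek had similar means in aged and young cells. Calcrl did too, but its young mean was raised by young 4, and no direction held. Of the 10 genes, 9 had enough counts to be tested and Flt1 did not. Among all 13413 genes tested, 4.26% were called higher and 1.50% lower in aged cells (edgeR's quasi-likelihood test, adjusted p under 0.05). The 9 tested receptors had a median log2 fold change of 0.25, with 6 positive values, and all tested genes had a median of 0.04. Groups did not overlap for 3 of the 9: Ramp2 and Kdr were higher and Nrp1 was lower in every aged library than in every young one. Over all tested genes such separation held for 36.6%, close to the share among the receptors.

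**Figure D1:**
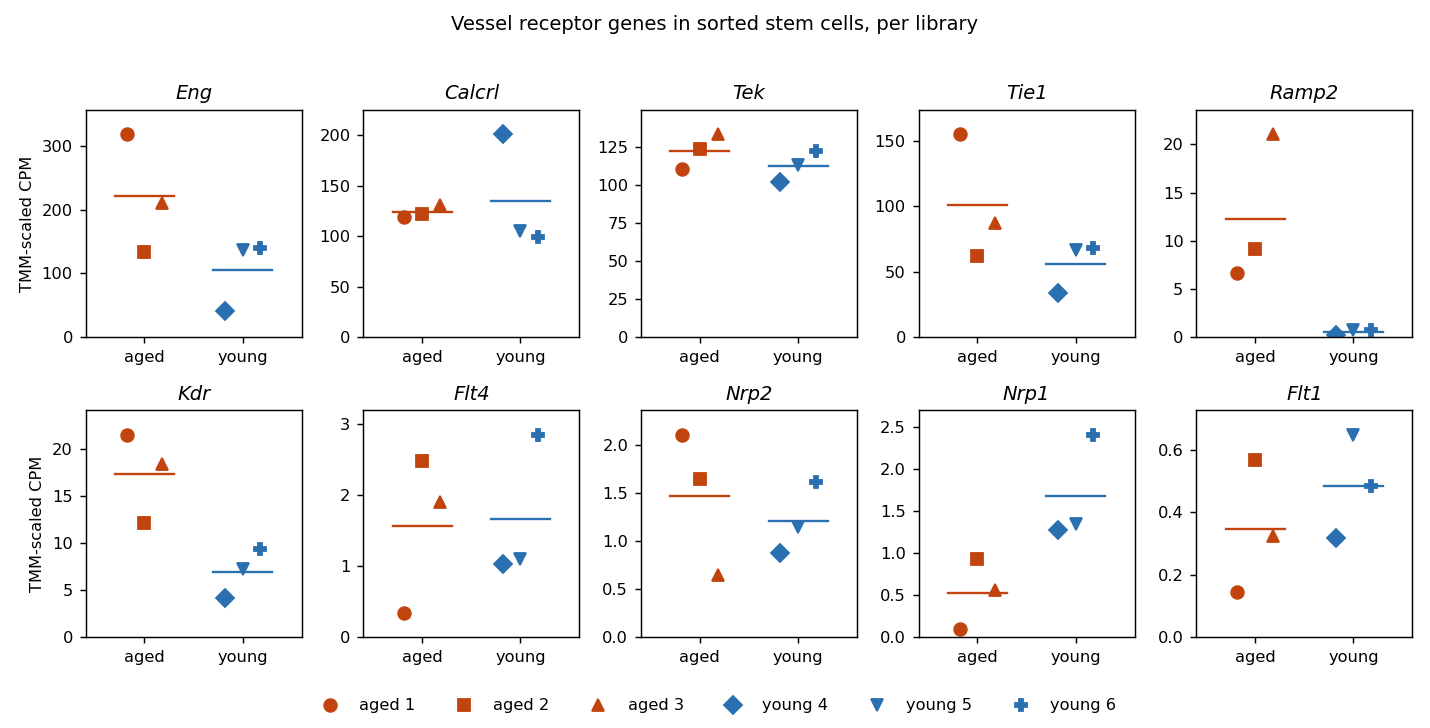
TMM-scaled CPM of the 10 genes in each library, on linear axes that start at 0, with aged libraries on the left and young ones on the right. Each symbol is 1 library and each line a group mean of 3 libraries. Ramp2 ran from 6.62 to 21.0 CPM in aged and from 0.159 to 0.701 CPM in young libraries, while Tek lay between 102 and 133 CPM in all 6.

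The levels of the receptors spanned a wide range. Per kb of the gene length given in the table, the order of the means over all 6 libraries was Eng at 45.9, Calcrl at 27.4, Tek at 25.1, Tie1 at 18.6, Ramp2 at 6.44, Kdr at 1.42, Flt4 at 0.278, Nrp2 at 0.140, Nrp1 at 0.11 and Flt1 at 0.0559 CPM per kb. The ranges of neighbours in this order overlapped, except those of Kdr and Flt4: the 6 values of Kdr, from 0.494 to 2.52 CPM per kb, lay above the 6 values of Flt4, from 0.0578 to 0.491 CPM per kb. Eng lay above Calcrl in 5 of 6 libraries, and Tek above Tie1 in 5 of 6. Ramp2 lay above Kdr in 3 of 6, which were the aged libraries. The sorted cells held RNA of the TIE receptors, Calcrl and Eng at levels well above those of the 3 VEGF receptors and the 2 neuropilins.

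Tek (mm10 chromosome 4, 94739289 to 94874976, plus strand) had 110, 124 and 133 CPM in aged 1, 2 and 3, against 102, 113 and 122 CPM in young 4, 5 and 6. The groups overlapped, and no library stood apart. The means were 123 ± 11.5 CPM in aged HSCs and 113 ± 10.1 CPM in young HSCs, with a log2 fold change of 0.12 ± 0.16 SE and an adjusted p of 0.636. Its 95% interval, from 0.842-fold to 1.41-fold, was the narrowest among the 9 tested receptors, although a p that misses the threshold does not show equal levels.

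Tie1, the orphan partner of TIE2 (chromosome 4, 118471191 to 118489849, minus strand), varied far more between libraries than Tek. It had 155, 61.9 and 86.9 CPM in aged 1, 2 and 3, against 33.8, 66.3 and 68.0 CPM in young 4, 5 and 6. Aged 1 was the highest and young 4 the lowest, and aged 2 lay below young 5 and young 6. Its log2 fold change was 0.85 ± 0.40 SE (adjusted p = 0.233), and 0.57 without young 4. The log2 ratio of Tie1 to Tek within a library, which does not depend on scaling, was -0.38 ± 0.77 in aged and -1.07 ± 0.46 in young cells, a difference of 0.70 with a 2-sided exact permutation p of 0.30 (0.30 adjusted over 2 ratios); it was 0.26 without aged 1 and 0.43 without young 4. The smallest p that 3 against 3 libraries allow is 0.10.

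Of the angiopoietins, Angpt1, the activating ligand of TIE2, was abundant in the stem cells themselves. Its mean was 928 ± 85.3 CPM in aged HSCs and 915 ± 144 CPM in young HSCs, with a log2 fold change of 0.02 ± 0.20 SE (adjusted p = 0.955). Per kb, it had 177 ± 16.2 CPM in aged HSCs and 174 ± 27.4 CPM in young HSCs, above Tek at 26.2 ± 2.47 and 24.1 ± 2.16 CPM per kb. Angpt2, which antagonises TIE2 in many settings, was at 0.856 ± 0.339 and 1.13 ± 0.245 CPM (adjusted p = 0.562). Angpt4 had too few counts to be tested.

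Ramp2 was the only receptor that edgeR called different with age. It lies on chromosome 11, 101246334 to 101248251, plus strand, and had 138, 177 and 453 counts in aged 1, 2 and 3, against 2, 14 and 16 counts in young 4, 5 and 6. As levels these were 6.62, 9.13 and 21.0 CPM in aged and 0.159, 0.698 and 0.701 CPM in young libraries. Every aged library lay above every young one, aged 3 was the highest, and young 4 lay below the limit of 3 counts. The log2 fold change was 4.46 ± 0.64 SE, or 22.0-fold with a 95% interval of 7.81-fold to 62.3-fold (adjusted p = 0.0167, edgeR). Summed over libraries, 768 aged against 32 young counts gave a ratio of 21.5, with an exact 95% interval of 15.1 to 31.7 that covers counting error only.

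The size and the call of Ramp2 depended on single libraries. Without aged 3 the fold was 14.2, with an adjusted p of 0.0514. Without young 5 or young 6 the adjusted p was 0.0732 or 0.0718, and the folds were higher than with all libraries. The call held without aged 1, aged 2 or young 4 (adjusted p = 0.0285, 0.0492 and 0.0237). In bulk RNA of sorted cells, more cells that express a gene and more RNA per cell cannot be told apart. The interval of Ramp2 also lies within that of Vps25, a gene of endosomal sorting on the same strand. In GENCODE M21, 1103 of 3301 exon bases of Ramp2 (33.4%) are exon bases of Vps25 too. Reads there may have been lost or assigned to either gene. The deposited length of Ramp2 is only 0.992 kb, so the shared part of the gene as counted is not known and may be larger. Vps25 itself had 160 ± 16.8 CPM in aged HSCs and 162 ± 10.5 CPM in young HSCs (adjusted p = 0.960).

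Calcrl, the receptor that RAMP2 accompanies (chromosome 2, 84330627 to 84425266, minus strand), did not follow it. It had 119, 122 and 131 CPM in aged 1, 2 and 3, against 201, 105 and 99.0 CPM in young 4, 5 and 6. The aged libraries lay close together. Young 4 was far above all others after TMM scaling, whose factor was 0.765 for young 4 and 1.04 to 1.08 elsewhere. A lower factor raises the scaled CPM of a library. The log2 fold change was -0.12 ± 0.29 SE (adjusted p = 0.803); it was 0.26 without young 4 and 0.11 with no scaling beyond library totals, so no direction held.

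Ramp1, the partner that gives Calcrl its CGRP specificity, was the main RAMP in every library. It averaged 128 ± 23.6 CPM in aged HSCs and 157 ± 20.0 CPM in young HSCs, with a log2 fold change of -0.30 ± 0.19 SE (adjusted p = 0.363). Ramp3, with 0 to 5 counts per library, could not be tested. Per kb, Ramp2 made up 16.1%, 15.4% and 33.7% of the RAMP RNA in aged 1, 2 and 3, against 0.268%, 1.43% and 1.45% in young 4, 5 and 6. Put as a ratio of levels per kb, Ramp1 exceeded Ramp2 by 5.23, 5.48 and 1.97 times in aged libraries and by 372, 69.0 and 67.8 times in young ones. The aged and young shares did not overlap. They restate the change of Ramp2 beside a Ramp1 that did not pass the test. Both shares and ratios rest on the deposited length of Ramp2 and carry its overlap with Vps25. The ratio of Ramp2 to Calcrl was not tested, since young 4 held 2 counts of Ramp2.

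**Figure D2:**
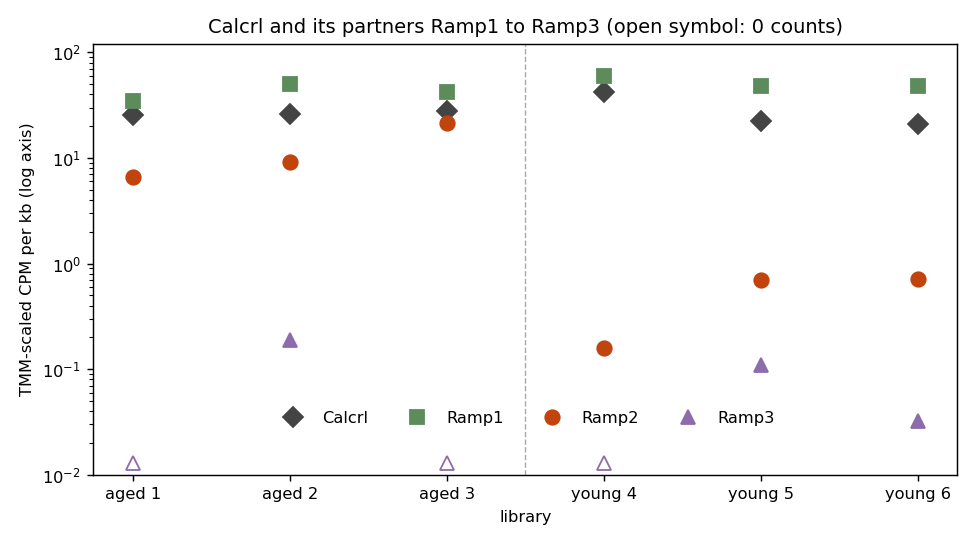
TMM-scaled CPM per kb of gene length, on a log axis, for Calcrl and Ramp1 to Ramp3 in each library, aged libraries on the left of the dashed line. Each symbol is 1 gene in 1 library, and open symbols at the bottom stand for 0 counts. Ramp2 lay at 6.67 to 21.2 CPM per kb in aged and at 0.160 to 0.707 CPM per kb in young libraries, while Ramp1 lay above Ramp2 in all 6.

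RNA of the peptide ligands of these receptors was very low in the cells. Adm, Adm2, Calca and Calcb, which encode adrenomedullin, adrenomedullin 2 and the CGRP peptides, summed to 0.0479 to 0.361 CPM in aged and to 0 to 0.263 CPM in young libraries, and none of the 4 had enough counts to be tested.

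Eng (chromosome 2, 32646595 to 32682669, plus strand) had the highest level per kb of the 10 genes. It had 318, 134 and 211 CPM in aged 1, 2 and 3, against 40.1, 136 and 140 CPM in young 4, 5 and 6. Aged 1 was the highest and young 4 the lowest, and aged 2 lay at the level of young 5 and young 6, so the groups overlapped. The log2 fold change was 1.07 ± 0.51 SE (adjusted p = 0.239), and 0.65 without young 4. Its last bases overlap Fpgs on the opposite strand, over 61 exon bases in GENCODE M21, and the kit does not mark strand. Fpgs had 31.3 ± 10.7 CPM in aged HSCs and 27.0 ± 13.6 CPM in young HSCs (adjusted p = 0.789).

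Of the ligands that endoglin can bind in complex with their receptors, Tgfb1 and Tgfb3 were tested and neither passed. Tgfb3 stood at 10.6 ± 3.10 CPM in aged HSCs and 2.51 ± 1.79 CPM in young HSCs (adjusted p = 0.101), and Tgfb1 at 5.65 ± 0.193 and 11.4 ± 5.05 CPM (adjusted p = 0.118). For both, the aged and young libraries did not overlap, Tgfb3 being higher and Tgfb1 lower in aged ones. Bmp10 had 0 counts in all 6 libraries, and Acvrl1, the ALK receptor that pairs with endoglin in endothelium, had too few counts to be tested. Tgfbr1 and Tgfbr2, the TGF-beta receptors, did not pass (adjusted p = 0.501 and 0.245).

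Among the VEGF receptors, Kdr, which encodes the main signalling receptor of VEGF-A (chromosome 5, 75933270 to 75978428, minus strand), was the most abundant. It had 21.5, 12.1 and 18.4 CPM in aged 1, 2 and 3, against 4.21, 7.22 and 9.42 CPM in young 4, 5 and 6. Every aged library lay above every young one. The log2 fold change was 1.31 ± 0.36 SE, or 2.48-fold with a 95% interval of 1.39-fold to 4.42-fold, and the adjusted p of 0.0782 did not pass. DESeq2 called Kdr higher (adjusted p = 0.00792), as did limma-voom with sample quality weights (adjusted p = 0.00987), tools that called 16.3% and 30.5% of all genes. Over the 16 alternatives the adjusted p ran from 0.00792 to 0.242, and the log2 fold change from 1.03 to 1.59.

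Flt1, which encodes the high-affinity VEGF-A receptor often described as a decoy (chromosome 5, 147562196 to 147725988, minus strand), had 3, 11 and 7 counts in aged 1, 2 and 3 and 4, 13 and 11 counts in young 4, 5 and 6. Values this close to the limit of 3 counts were too low to be tested. The log2 ratio of Kdr to Flt1 was 5.82 ± 1.40 in aged and 3.83 ± 0.41 in young cells, a difference of 1.99 with a 2-sided exact permutation p of 0.10, the smallest possible here (0.20 adjusted over 2 ratios). It rests on the few counts of Flt1, 3 of them in aged 1, and was 1.29 without aged 1 and 2.69 without aged 2. Flt4, the receptor of VEGF-C and VEGF-D on lymphatic vessels (chromosome 11, 49609679 to 49652739, plus strand), had 0.336, 2.48 and 1.90 CPM in aged and 1.03, 1.10 and 2.85 CPM in young libraries. Its groups overlapped, with a log2 fold change of -0.11 ± 0.72 SE (adjusted p = 0.935) that was positive with no scaling beyond library totals.

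The neuropilins, which bind VEGFs and class 3 semaphorins, were low. Nrp1 (chromosome 8, 128359073 to 128505475, plus strand) had 2, 18 and 12 counts in aged 1, 2 and 3, against 16, 27 and 55 counts in young 4, 5 and 6, or 0.0959, 0.929 and 0.557 CPM against 1.27, 1.35 and 2.41 CPM. Every aged library lay below every young one, and aged 1 lay below the limit of 3 counts. A log2 fold change of -1.68 ± 0.67 SE did not pass (adjusted p = 0.181), and it was -2.37 without aged 2 and -1.19 without aged 1. Over the 15 alternatives it ran from -2.53 to -1.19, with adjusted p-values from 0.0494 to 0.400. Nrp2 (chromosome 1, 62703317 to 62818692, plus strand) had 2.11, 1.65 and 0.650 CPM in aged and 0.875, 1.15 and 1.62 CPM in young libraries. Its groups overlapped, with a log2 fold change of 0.25 ± 0.50 SE (adjusted p = 0.766) whose sign changed in 4 of 15 alternatives. The ratio of Nrp1 to Nrp2 was not tested, since aged 1 held 2 counts of Nrp1.

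**Figure D3:**
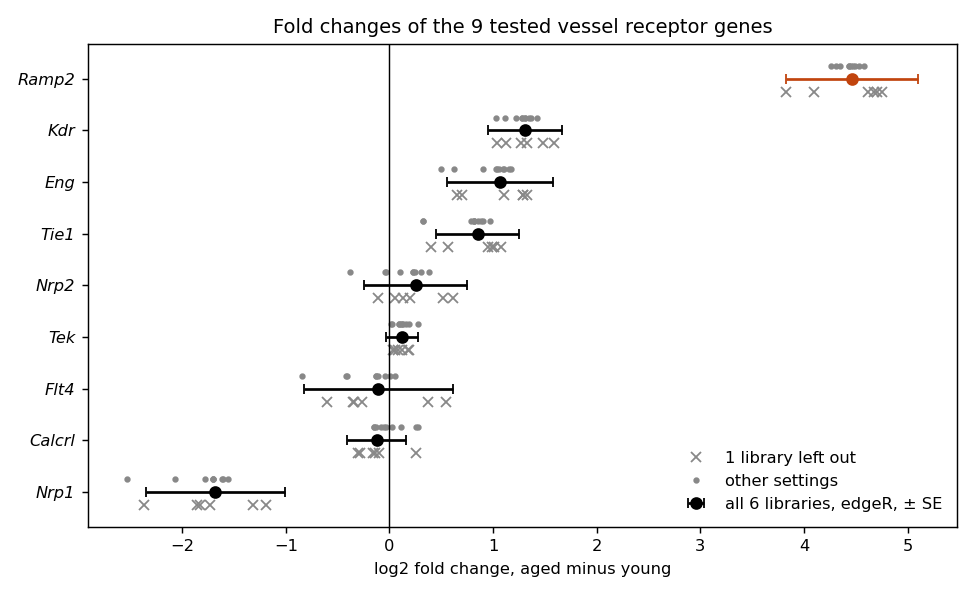
Log2 fold change, aged minus young, of the 9 tested receptor genes, ordered by size. Filled circles with bars give the value and SE from edgeR with all 6 libraries (Ramp2, the called gene, in orange), crosses the values with 1 library left out, and dots the other settings. Ramp2 stayed between 3.83 and 4.75 in all of them, Kdr between 1.03 and 1.59, and Tek between 0.02 and 0.27.

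Of the VEGF ligands, Vegfc was the most abundant in the cells, at 21.8 ± 2.44 CPM in aged HSCs and 17.2 ± 0.429 CPM in young HSCs (adjusted p = 0.274). Vegfb, a ligand of FLT1, was at 5.30 ± 0.861 and 9.67 ± 4.45 CPM (adjusted p = 0.189). None of the 4 tested VEGF genes passed. Of the 6 semaphorin ligands of neuropilins, Sema3f alone was tested, at 0.979 ± 0.327 CPM in aged HSCs and 0.236 ± 0.101 CPM in young HSCs (adjusted p = 0.0697).

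The genes around the receptors gave no called change with age in edgeR. Of 69 ligand, partner receptor, signalling and transcription factor genes in the table, 49 were tested. Of these, edgeR called 0, against 4.26% called higher and 1.50% called lower among all tested genes. Before adjustment, p was below 0.05 for 9 of the 49, 6 with higher and 3 with lower aged levels. Over all tested genes it was below 0.05 for 25.1%, in either direction. DESeq2, which called 16.3% of all genes, called 4 of the 49 higher and 1 lower (Plxna1, Sema3f, Shb and Tgfb3; Tgfb1), and limma-voom, which called 6.09% of all genes, called 0. Limma-voom with sample quality weights, which called 30.5% of all genes, called 10 of the 49 higher and 2 lower. With all 6 libraries the 49 genes had a median log2 fold change of 0.09. Of the adaptors and kinases downstream, Pik3r1, a regulatory subunit of PI3 kinase, was at 303 ± 77.4 CPM in aged HSCs and 195 ± 17.2 CPM in young HSCs (adjusted p = 0.137), and Gnas, the stimulatory G protein through which Calcrl signals, at 175 ± 9.97 and 256 ± 70.7 CPM (adjusted p = 0.183). Of the transcription factors that stem cells share with endothelium, Lmo2 was at 546 ± 135 and 567 ± 121 CPM (adjusted p = 0.904), and the ETS factor gene Fli1 at 401 ± 39.9 and 526 ± 158 CPM (adjusted p = 0.350). Gipc1, whose product binds the tail of NRP1, was at 70.6 ± 15.8 and 53.7 ± 22.3 CPM (adjusted p = 0.490).

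Eng, Tie1 and Kdr varied together. Over the 6 libraries, Pearson's r of log2 CPM was 0.966 between Tie1 and Eng, 0.934 between Kdr and Eng and 0.908 between Tie1 and Kdr, against 0.526 between Tek and Eng. Ramp2 ran with Kdr nearly as closely (0.899), and less so with Eng (0.747) and Tie1 (0.660). These are descriptions of libraries that share age and library composition. All 3 genes were highest in aged 1 and lowest in young 4. After each library was corrected for its trend with GC content and with gene length, the log2 fold changes were 0.63 for Eng, 0.32 for Tie1 and 1.11 for Kdr (adjusted p = 0.190, 0.301 and 0.0729), and that of Ramp2 was 4.35 (adjusted p = 0.0117). The longest GENCODE transcripts of Eng, Tie1 and Ramp2 had 57.4%, 57.6% and 56.7% GC, and that of Flt4 had 56.5%. Those of Kdr and Tek had 49.4% and 47.1% GC, and that of Calcrl had 37.8%. Flt4 had only 7 to 65 counts per library, and its log2 fold change was -0.11, or -0.42 after the same correction. The part of GC content in these values was not tested.

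For the 3 receptors with the highest mean CPM, the genes with the most similar profile over the 6 libraries were read off. They were Prickle3, Adgrg1 and Pdlim2 for Eng (r of 0.999 each), Adprm, Slc25a23 and Gabarapl2 for Calcrl (0.993, 0.993 and 0.992), and C030034I22Rik, Pdlim7 and Kmt2c for Tek (0.989, 0.980 and 0.974). Such values are the top of 13413 genes over 6 libraries and are given as a description.

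Markers of other cells were set beside Ramp2, whose product is abundant in endothelium. Of 9 defining endothelial markers, 7 were tested and 1 was called, beside 4.26% called higher and 1.50% called lower among all tested genes. Cldn5, a tight junction gene, rose 8.06-fold (adjusted p = 0.0222, edgeR). Its call was lost without aged 2, young 5 or young 6, while its fold was 5.17 without aged 3. Cldn5 stood at 18.7, 22.3 and 55.0 CPM in aged 1, 2 and 3, against 3.26, 3.49 and 5.08 CPM in young 4, 5 and 6, with aged 3 highest as for Ramp2. The 9 markers summed to 37.4, 38.0 and 75.1 CPM in aged and to 8.98, 18.0 and 29.6 CPM in young libraries. The 8 without Cldn5 summed to 18.7, 15.7 and 20.1 CPM in aged 1, 2 and 3, against 5.72, 14.5 and 24.5 CPM in young 4, 5 and 6, and these groups overlapped.

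Of the 7 tested, 3 had positive and 4 negative log2 fold changes. Fabp4, a fatty acid-binding protein of capillary endothelium, went the other way from Cldn5: it was at 0.483 ± 0.158 CPM in aged HSCs and 2.37 ± 1.58 CPM in young HSCs, lower in every aged library than in every young one (log2 fold change -2.30 ± 0.59 SE, adjusted p = 0.0683). It was called lower by DESeq2, by limma-voom with quality weights, with no filter on low counts and without young 4. None of the 9 was at 0 in all libraries. Cdh5, which encodes VE-cadherin, was at 0.165 ± 0.108 CPM in aged HSCs and 0.643 ± 0.570 CPM in young HSCs and too low to be tested. Plvap was at 3.41 ± 2.34 and 3.35 ± 2.08 CPM (adjusted p = 1.0), and Clec14a at 9.82 ± 3.00 and 3.92 ± 2.72 CPM (adjusted p = 0.236). The part of endothelial RNA in the change of Ramp2 was not tested. The 8 endothelial genes that stem cells also express summed to 590 to 774 CPM in aged and 328 to 468 CPM in young libraries. Of these, Procr rose 2.82-fold (adjusted p = 0.0106; lost without young 5 or young 6), while Pecam1 and Vwf did not pass (adjusted p = 0.217 and 0.0508).

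**Figure D4:**
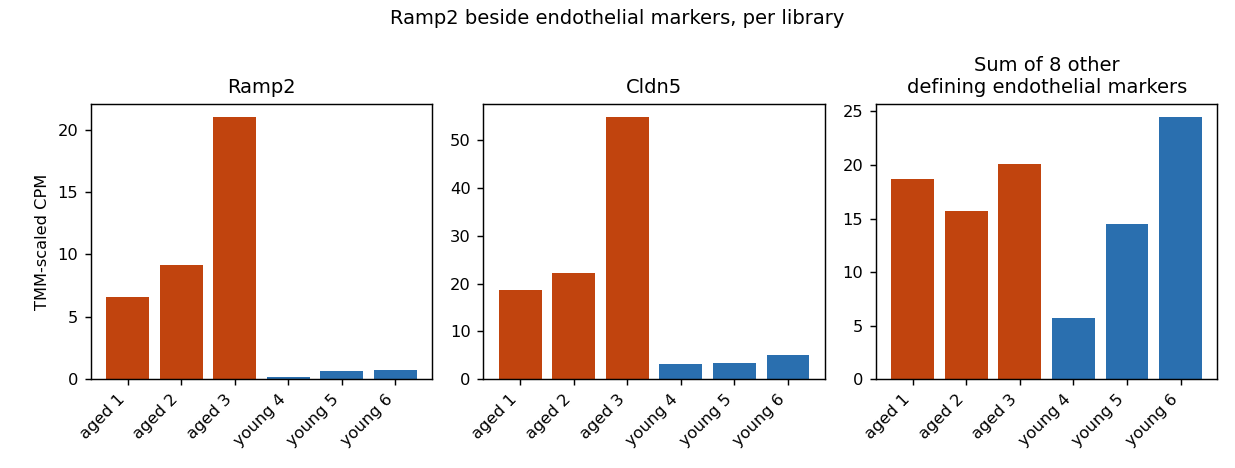
TMM-scaled CPM per library, aged libraries on the left in orange and young ones on the right in blue, for Ramp2, for Cldn5 and for the sum of the 8 other defining endothelial markers. Bars are single libraries and start at 0. Ramp2 and Cldn5 were both highest in aged 3, while the sum of the other 8 was highest in young 6, at 24.5 CPM.

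Markers of other cells that a sort could carry over were read as well. Of 7 stromal markers, which summed to 15.6 to 29.9 CPM in aged and 7.55 to 76.6 CPM in young libraries, Cxcl12 fell to 0.856 ± 0.393 CPM in aged cells, against 3.92 ± 1.61 CPM in young cells (adjusted p = 0.0486), a call that, of the 6 fits with 1 library left out, held only in that without young 4. The 7 macrophage markers summed to 21.9 to 27.9 CPM in aged and 37.1 to 42.9 CPM in young libraries, and none was called; the most abundant were Cd163 and Vcam1 (adjusted p = 0.344 and 0.0753). Of 6 megakaryocyte markers, Ppbp fell 4.48-fold (adjusted p = 0.0160; lost when aged 1, aged 2, aged 3 or young 5 was left out), and the sum ran from 231 to 1078 CPM in aged and from 706 to 1148 CPM in young libraries. The 4 erythroid markers in the table summed to 62.7 to 97.0 CPM in aged and 27.6 to 93.6 CPM in young libraries, and the 6 lymphoid markers to 59.4 to 86.4 and 73.5 to 133 CPM. None of the 4 erythroid or 2 lymphoid markers tested was called. Of the erythroid ones, Klf1 was at 15.7 ± 10.5 CPM in aged HSCs and 39.8 ± 22.9 CPM in young HSCs, and the globin gene Hba-a2 at 32.4 ± 15.0 and 6.14 ± 5.08 CPM (adjusted p = 0.204 and 0.0737). Of the lymphoid ones, Cd79b was at 75.1 ± 14.9 CPM in aged HSCs and 94.9 ± 33.3 CPM in young HSCs, and Cd79a at 0.716 ± 0.176 and 0.0703 ± 0.0662 CPM (adjusted p = 0.462 and 0.0525). The part of these cells in the receptor values was not tested.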

How the data were processed

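RNA of 6 libraries, 3 of aged and 3 of young sorted HSCs, was sequenced after amplification with the SMART-Seq v4 kit, per the labels' protocols; the kit does not mark strand. Per the submitters' processing notes, Trimmomatic, STAR 2.6.0, HTSeq 0.11.1 and edgeR were used with build mm10; the role of each tool, the annotation and how reads were assigned are not stated in these notes. The authors deposited raw whole-number counts per gene, with coordinates and a length in kb, another deposited column of which the definition is not stated. Starts equalled those of RefSeq (GRCm38.p6) for 14475 of 23349 matched symbols, and coordinates were read as 1-based.

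The members and gene lists were chosen with earlier results of these data known. Age was tested with edgeR 4.0.16 (R 4.3.3): filterByExpr, TMM, glmQLFit and glmQLFTest over all 6 libraries, with p-values adjusted by Benjamini-Hochberg across 13413 genes and called under 0.05. SE is the log2 fold change over the square root of F. Within-library ratios were compared by exact permutation. The edgeR, DESeq2 and limma-voom fits were also run on simulated counts with known changes. Those counts held no library like young 4 and no trend with GC content or length. They therefore do not show how the fits handle such features. Alternatives were 3 other scalings, 2 filters, DESeq2 1.42.0, limma 3.58.1 (voom, with and without quality weights), each library left out, young 4 and aged 2 both left out, and an offset for each library's trend with transcript GC and with length (natural splines, 4 degrees of freedom each). Correlations used log2 CPM with a prior count of 2. Genes named were the 10 receptors, the called genes of each list or else its 2 most abundant (1 for the semaphorins), the sort markers, and the 3 genes most like each of the 3 most abundant receptors; genes named beyond this rule (neighbours, uncalled genes near the threshold, low ligands) were chosen after their values were seen.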

Additional observations from a re-analysis of the deposited data

How the results depend on the processing

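Ramp2 was called in 13 of 16 alternatives, with log2 fold changes from 3.83 to 4.75; the exceptions were the fits without aged 3 (3.83), young 5 (4.68) or young 6 (4.71). Kdr, Eng and Tie1 stayed positive and Nrp1 negative throughout. DESeq2 called 2 of 9 receptors (Kdr and Ramp2), and limma-voom with sample quality weights called 3 of 9 (Kdr, Nrp1 and Ramp2). Among all genes these tools called 16.3% and 30.5%. With a library left out the number of receptors called was 0 to 1. The cause of these shifts was not tested. Genes called in all numbered 443 at 5 CPM or more, 2181 with DESeq2, 4094 with quality weights, 1365 after correction for GC content and length, and 74 to 1029 with a library left out, against 772. Higher genes made up 74.0% of the calls, but 50.3% after that correction, 57.5% with DESeq2, 56.8% with quality weights and 87.2% to 96.5% without any single library other than young 4. Pathway genes called numbered 5 of 49 with DESeq2 and 12 of 49 with quality weights, beside 16.3% and 30.5% of all genes. They numbered 1 with young 4 and aged 2 both left out and 0 to 2 with a library left out, against 0. Defining endothelial markers called numbered 2 without a filter and 2 with DESeq2 (Cldn5 higher, Fabp4 lower), 3 with quality weights (Cldn5 and Clec14a higher, Fabp4 lower), 0 with young 4 and aged 2 both left out and 0 to 2 with a library left out, against 1. No scaling beyond library totals moved the median log2 fold change of all genes by 0.16, and the GC and length correction moved it by -0.12; with no filter, which adds genes of low counts, it moved by 0.23. Signs turned for receptors near 0. Calcrl was 0.11 without scaling, 0.28 with quality weights, 0.26 with young 4 and aged 2 both left out and 0.020 after correction for GC content and length, and ran from -0.31 to 0.26 with a library left out. Flt4 was 0.0082 without scaling and 0.058 with quality weights, and ran from -0.61 to 0.55. Nrp2 was -0.38 with quality weights, -0.047 with both libraries left out and -0.031 after that correction, and ran from -0.11 to 0.61. The ratios of Tie1 to Tek and of Kdr to Flt1 ran from 0.26 to 1.01 and from 1.29 to 2.69 with a library left out, shifts smaller than the spread between replicates. No paired analysis was possible because aged and young libraries share no replicate number. Depth limits Flt1, Flt4, Nrp1 and Nrp2, whose lowest counts were 3, 7, 2 and 11, and the fold of Ramp2, whose young libraries held 2, 14 and 16 counts.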
